A study of Mus musculus with 298 samples.

Results

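The cells described here are the 165 patch-clamped mouse neurons whose sample titles mark them as active, that is, firing when they were recorded. The rest of the series held 49 silent cells by day, 70 silent cells at night and 14 depolarized cells, so the active ones were 55.4% of the whole. They came from the suprachiasmatic nucleus (SCN), the pair of small hypothalamic nuclei that set daily rhythms, and were chosen by title alone. The day group held 78 cells, 51 labelled cFOS+ and 27 labelled cFOS-, from slices made near ZT0 (lights on). The night group held 87 cells, 41 cFOS+ and 46 cFOS-, from slices made near ZT12 (lights off). All mice were kept with 12 h of light per day, and for both groups the contents of a patch pipette were made into Nextera XT libraries. No genotype, strain, age or drug is given in the labels, nor is it said how the cFOS label was assigned. The comparison asks which transcripts differ between neurons that fire by day and neurons that fire by night.

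Several recordings could come from 1 slice, and no animal or slice is named for any cell. Cells of 1 slice are not independent, so each group counted as 1 sample and no test between groups was made. The values below describe these collections of cells. The reads of a group's cells were added up and scaled to counts per megaread of the group (CPM). Ratios are log2 of (CPM + 1) by day over (CPM + 1) at night, so a positive value is higher by day. Intervals of CPM are exact Poisson 95% intervals of the reads, and intervals of shares of cells are Clopper-Pearson 95% intervals. Both cover counting error only, not the spread between animals or slices. In such samples fewer neurons carrying a transcript and less transcript per neuron cannot be told apart from the summed CPM, so values per cell are given as well.

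SCN neurons keep time with a feedback loop of transcription. BMAL1 (gene Arntl) and CLOCK bind E-box sequences and switch on the Per, Cry, Nr1d1 and Dbp genes. PER and CRY proteins then block BMAL1 and CLOCK, while REV-ERB alpha, the product of Nr1d1, shuts off Arntl through RORE sequences. In the SCN, firing is known to be higher by day than at night, and light or firing induces immediate early genes such as Fos. Clock output also reaches secreted peptides, among them prokineticin 2 (Prok2) and vasopressin (Avp).

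The promoters of 4 genes higher by day and of Arntl, which was higher at night, are shown because their motifs are those the loop is known to use. Bases are from RefSeq, build GRCm38.p6, read 5′ to 3′ on the strand of the gene, and capitals mark the motif. For the first 4, the stretch is the 250 bases before the transcription start. These are Ciart (chr3:95882229-95882478, minus strand), Nr1d1 (chr11:98775378-98775627, minus strand), Per1 (chr11:69098699-69098948, plus strand) and Prok2 (chr6:99726393-99726642, minus strand). For Arntl, 30 bases around the motif are shown (chr7:113207530-113207559, plus strand).
Ciart: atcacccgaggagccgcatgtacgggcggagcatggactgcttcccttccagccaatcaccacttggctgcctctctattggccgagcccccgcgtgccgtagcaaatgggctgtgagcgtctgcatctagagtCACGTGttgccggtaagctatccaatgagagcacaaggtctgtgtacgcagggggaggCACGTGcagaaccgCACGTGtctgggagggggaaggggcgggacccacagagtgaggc
Nr1d1: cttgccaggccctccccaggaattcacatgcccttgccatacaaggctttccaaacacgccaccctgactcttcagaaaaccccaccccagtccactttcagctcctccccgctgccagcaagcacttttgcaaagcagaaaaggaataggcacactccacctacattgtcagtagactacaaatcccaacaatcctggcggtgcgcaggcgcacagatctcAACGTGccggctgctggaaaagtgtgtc
Per1: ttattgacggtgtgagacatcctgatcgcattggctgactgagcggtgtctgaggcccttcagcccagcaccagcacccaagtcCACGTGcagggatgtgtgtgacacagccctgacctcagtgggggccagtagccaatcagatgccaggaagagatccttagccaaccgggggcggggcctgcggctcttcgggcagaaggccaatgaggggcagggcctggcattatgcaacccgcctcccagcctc
Prok2: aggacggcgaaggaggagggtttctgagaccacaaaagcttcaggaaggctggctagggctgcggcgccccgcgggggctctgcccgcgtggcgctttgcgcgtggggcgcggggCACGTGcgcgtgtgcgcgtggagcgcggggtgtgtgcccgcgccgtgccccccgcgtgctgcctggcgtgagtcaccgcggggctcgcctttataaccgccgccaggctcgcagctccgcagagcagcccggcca
Arntl: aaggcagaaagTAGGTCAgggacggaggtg

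The search covered windows from 250 bases before to 50 after the start, on both strands. The motifs were the E-box CACGTG, the E-prime box CACGTT, the D-box (TTATGTAA or TTACGTAA), the RORE (TAGGTCA or TGGGTCA) and the cAMP response element TGACGTCA. In the printed stretches the matches did not overlap. The 3 E-boxes of Ciart began 116, 58 and 44 bases before the start and that of Prok2 135 bases before. The capitals in Nr1d1 are an E-prime box on the opposite strand, 28 bases before the start, and the RORE of Arntl began at base 31 after the start. Of 20 clock genes, 17 had a window, and 5 of these held an E-box, in 6 of 23 windows (26.1%). Among all 32851 promoter windows, 7.15% held an E-box. An E-prime box was in 4 of the 23 clock windows (17.4%) and in 4.68% of all windows. A RORE was in 2 (8.70%, Arntl and Nfil3) against 6.45% of all, a D-box in 1 (4.35%, Per3) against 1.06%, and a cAMP response element in 1 (Hlf) against 1.79%. The window of Dbp held none of these letters. A match describes the letters only.

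Depth was alike in the groups. Cells had 3187057 to 20074911 reads, with medians of 6333815 by day and 6383791 at night, and 2341 to 8179 detected genes. The 2 most similar cells correlated at 0.689 (Pearson, log2 scale, across genes), so no cell appeared to be deposited more than once. Neuron markers summed to at least 152 CPM in every cell. At least 1 of 8 SCN markers (Six6, Lhx1, Zfhx3, Rorb, Vipr2, Nms, Vip and Avp) reached 20 CPM in 69 of 78 day cells (88.5%) and 77 of 87 night cells (88.5%). Markers of other cell types were also read, and more so by day. The 13 microglia markers summed to 100 CPM or more in 30 day cells (38.5%, 27.7 to 50.2%) and 24 night cells (27.6%, 18.5 to 38.2%). Their sum ran from 0 to 20340 CPM by day and from 0 to 34684 CPM at night, and P2ry13 had no read. In 5 day cells and 2 night cells that sum exceeded the sum of the neuron markers, and in night cell S537 it was 34684 against 152 CPM. Beside some of the results below, the value without the cells holding microglia markers is given. For some, values by cell number are given too. Cells numbered up to S319 were 19 by day and 50 at night, and those from S324 on were 59 and 37. Time of day and cell number were thus unevenly mixed, and their parts cannot be fully told apart. Fos itself went against the cFOS labels: by day it stood at 2632 CPM in cells labelled cFOS+ and 3102 CPM in cells labelled cFOS-, and at night at 1633 and 2712 CPM. The cFOS names below therefore refer to the labels.

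With each group scaled to the same total, the day and night cells differed little in a common direction over the whole transcriptome. A common change in RNA content would not show after this scaling. Of 8610 genes with at least 20 CPM in the higher group and a read in at least 10% of its cells, 47.6% were higher by day, and the median log2 ratio was -0.03. A ratio of 2-fold or more was reached by 587 genes (6.82%) by day and 752 genes (8.73%) at night. Past 2-fold in all cells and also within cFOS+ and within cFOS- cells were 2.85% of the genes tested by day, and 3.34% at night. Across all genes tested, the direction was the same in cFOS+ and cFOS- cells for 4537 (52.7%). The log2 ratios of the cFOS+ and the cFOS- cells correlated weakly across genes (Pearson 0.13, Spearman 0.10), and genes are not independent replicates. The silent neurons of the same labels, 49 by day and 70 by night with a nearly identical pair averaged, offer the same contrast in other cells. There, 316 of the 587 genes (53.8%) and 416 of the 752 (55.3%) had the same direction, beside 51.7% of all genes tested. The genes just inside and outside the limit were Dync1i1 (1.00005) and Jkamp (0.998221) by day. The plot of all genes tested shows the clock genes Nr1d1, Dbp and Ciart above the bulk of genes at their level.

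**Figure D1:**
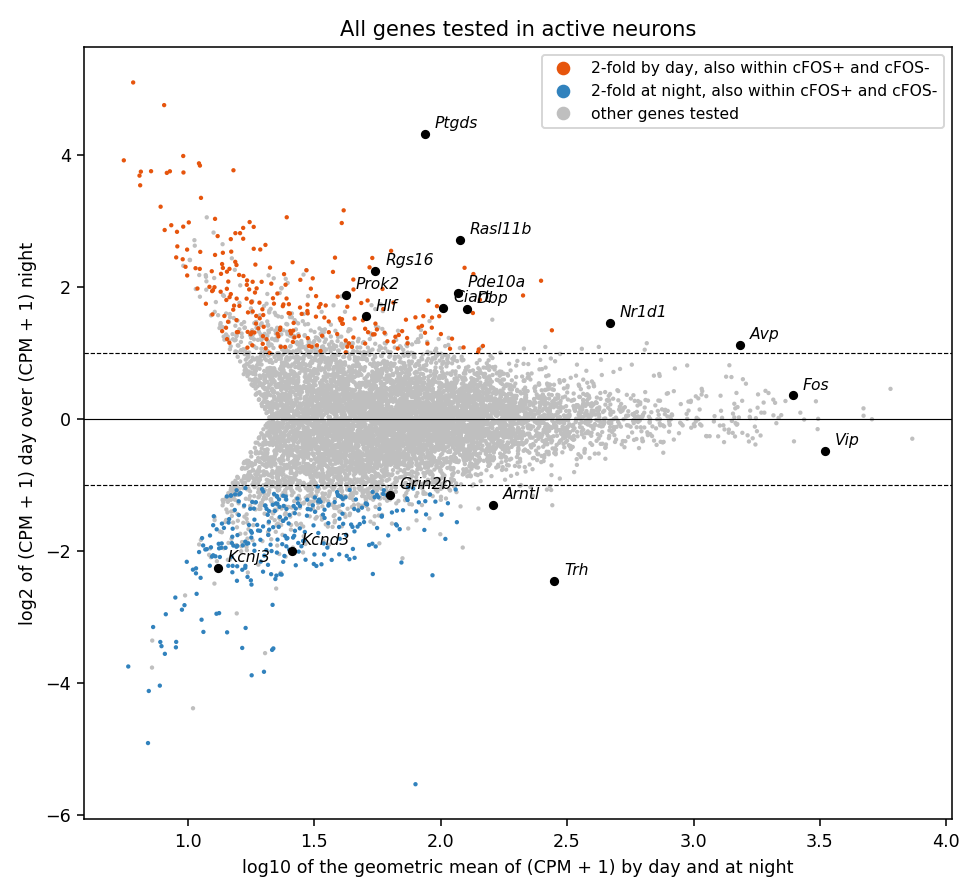
Log2 ratio of day over night (vertical axis) against the mean level (horizontal axis, log10 of CPM + 1) for the 8610 genes tested in active neurons. Each point is 1 gene, coloured points passed 2-fold within cFOS+ and within cFOS- cells as well as in all (2.85% of the genes by day, 3.34% at night), black points are named genes, and dashed lines mark 2-fold; the scatter widens toward low levels.

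Most clock genes stood higher in the day cells, whereas Arntl stood higher in the night cells. Of 20 measured members, 14 were higher by day and the median log2 ratio was 0.65, against 5658 of 11836 genes (47.8%) and a median of -0.03 among all genes at 5 CPM or more. In silent cells 14 of the 20 were higher by day (median 0.43). Within the labels, 15 were higher by day in cFOS+ cells (median 0.47) and 12 in cFOS- cells (median 0.44). Past 2-fold by day were Nr1d1, Ciart, Dbp and Hlf (4 of 19 tested, beside the 6.82% of all genes), and past 2-fold at night was Arntl (1 of 19, beside 8.73%). All 5 passed 2-fold within each cFOS label as well, beside 2.85% of all genes tested by day and 3.34% at night.

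Nr1d1 (chr11:98767932-98775333) was at 774 CPM (772 to 776) in the day cells and 281.8 CPM (280.4 to 283.1) in the night cells. Single day cells ran from 0 to 4686 CPM with a median of 399, and night cells from 0 to 1675 CPM with a median of 141. The 2.74-fold ratio (log2 1.45) was a difference of level more than of presence: a read was found in 85.1% (74.96 to 92.3%) of the day group and 85.2% (75.6 to 92.1%) of the night group, after each cell was thinned to 4000000 reads. Day cells were the higher of 64.1% of all day and night pairs of cells, and night cells of 34.1%. The groups overlapped widely, with cells near 0 in each. The log2 ratio was 1.69 in cFOS+ cells, 1.34 in cFOS- cells and 1.59 in silent cells.

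Dbp, a clock-controlled transcription factor, differed in its summed level and also in the share of cells that carried it. It was at 224 CPM in the day cells and 70.2 CPM in the night cells (log2 1.66), and its median over cells was 134 CPM by day but 0 at night, with highest cells at 1300 and 658 CPM. After thinning, a read remained in 70.3% (58.5 to 80.3%) of the cells by day and 40.7% (29.9 to 52.2%) at night. Ciart, a repressor that binds BMAL1, stood at 183 and 56.2 CPM (log2 1.68), with reads in 51.4% and 22.2% of thinned cells and highest cells at 1600 and 863 CPM. Hlf, a transcription factor of the same family as Dbp, stood at 85.9 and 28.7 CPM (log2 1.55), with reads in 52.7% and 28.4% of thinned cells. In silent cells the log2 ratios of Dbp, Ciart and Hlf were 2.36, 3.0 and 0.98.

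Arntl (chr7:113207465-113314126), the activator of the loop, lay in the opposite direction. It was at 101 CPM (100.4 to 102) in the day cells and 252.8 CPM (251.5 to 254.04) in the night cells, a log2 ratio of -1.31. The median over cells was 0 by day against 61.1 CPM at night. The highest cells were at 1293 and 1508 CPM. A read was found in 32.4% (22.0 to 44.3%) of the day cells after thinning and in 66.7% (55.3 to 76.8%) of those at night. The log2 ratio was -1.03 in cFOS+ cells, -2.23 in cFOS- cells and -1.15 in silent cells. Clock, its partner, was lower by day at 46.0 against 91.1 CPM (log2 -0.97), also within cFOS+ (-0.94), cFOS- (-1.01) and silent cells (-1.19). Npas2, which can stand in for CLOCK, was at 22.8 and 12.1 CPM (0.86), but a single day cell held 37.96% of its day reads.

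**Figure D2:**
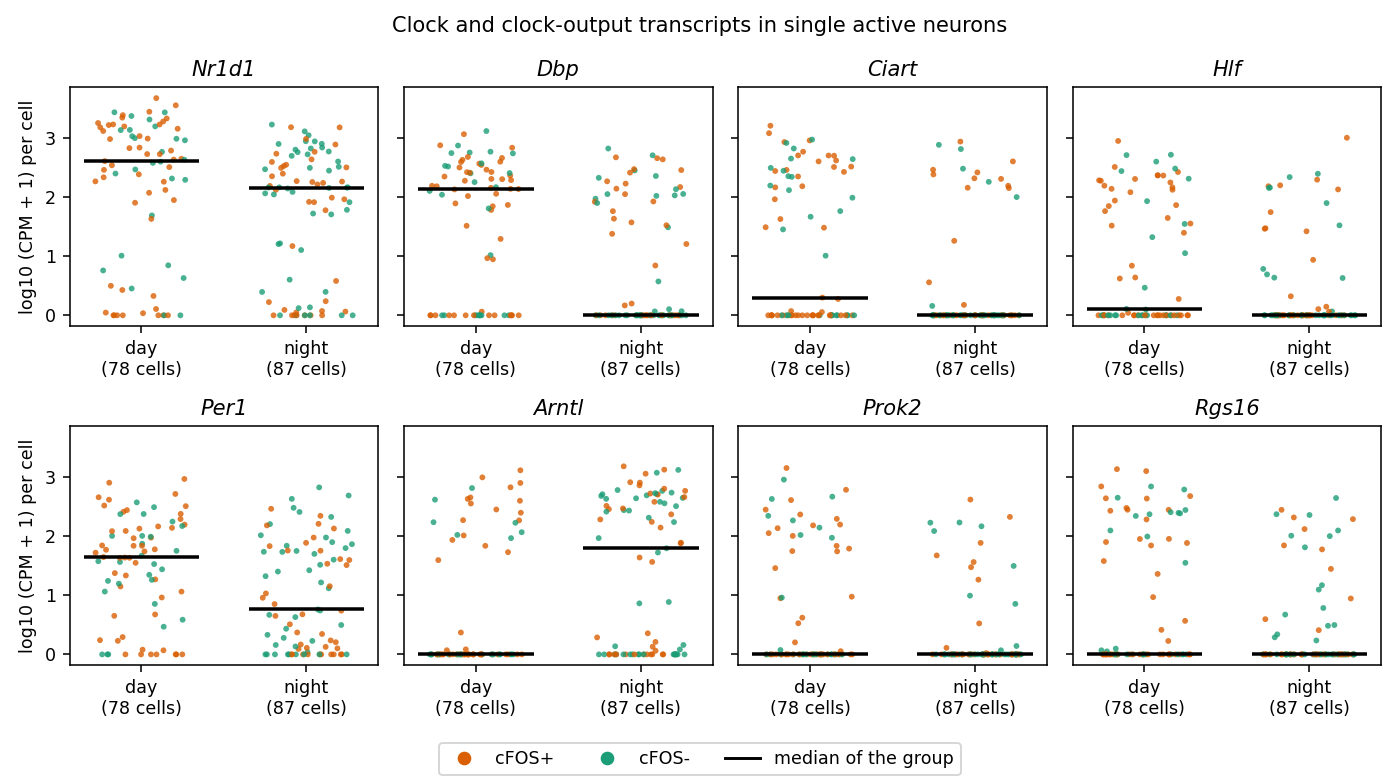
CPM of 8 genes in each active neuron (vertical axis, log10 of CPM + 1), by time of day and coloured by cFOS label, with the median of each group as a bar. The bar of Nr1d1 is higher by day (399 against 141 CPM), that of Dbp is 134 CPM by day but 0 at night, and that of Arntl is 0 by day but 61.1 CPM at night, while cells of each group spread from 0 upward for every gene.

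The remaining repressors were split. Per1, a period gene, was at 98.9 CPM in the day cells and 50.5 CPM in the night cells (log2 0.96), with medians over cells of 42.7 and 4.74 CPM and a read in 86.5% and 77.8% of thinned cells. Its ratio was 1.70 in cFOS+ cells, 0.38 in cFOS- cells and 0.16 in silent cells. Nr1d2, which encodes REV-ERB beta, was at 146 and 76.2 CPM (log2 0.93; 0.51 in cFOS+, 1.45 in cFOS- and 1.64 in silent cells). Per2 and Per3 were at slightly higher levels at night (log2 -0.28 and -0.43), as was Cry1 (-0.34, but 0.097 without the cells holding microglia markers), and Cry2 was near parity at 434.6 and 402.3 CPM (0.11). The E-box repressor Bhlhe40 stood at -0.27 (0.028 without those cells) and its relative Bhlhe41 at 0.58. Cry1, Cry2, Per2 and Bhlhe41 took opposite signs in the 2 cFOS labels.

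All 7 output and RORE factors were higher by day in the summed CPM. Besides Dbp and Hlf they included Tef (94.2 against 49.3 CPM, log2 0.92), a further member of their family, the receptor Rora, which activates through ROREs (484 against 292 CPM, 0.73), and its relative Rorb (236.7 against 181.1 CPM, 0.38). Nfil3, a repressor at D-boxes, stood at 0.37. Rora was read in 71.6% of thinned day cells and 50.6% of night cells. In silent cells Tef (-0.30) and Nfil3 (-0.83) had the other sign. Of the 7 factors, 6 were higher by day in cFOS- cells and 6 among cells numbered up to S319. Day cells were the higher of more pairs of cells for 5 of the 7. Only 6 of the 7 met the limits for genes tested. Of the 13 kinases, ubiquitin ligases and other enzymes that set PER and CRY stability, 9 were higher by day (median 0.16) and none passed 2-fold. In cFOS- cells 5 of the 13 were higher by day (median -0.03). Btrc (129 against 68.2 CPM, 0.91) lay farthest out, but stood at -0.79 in silent cells.

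**Figure D3:**
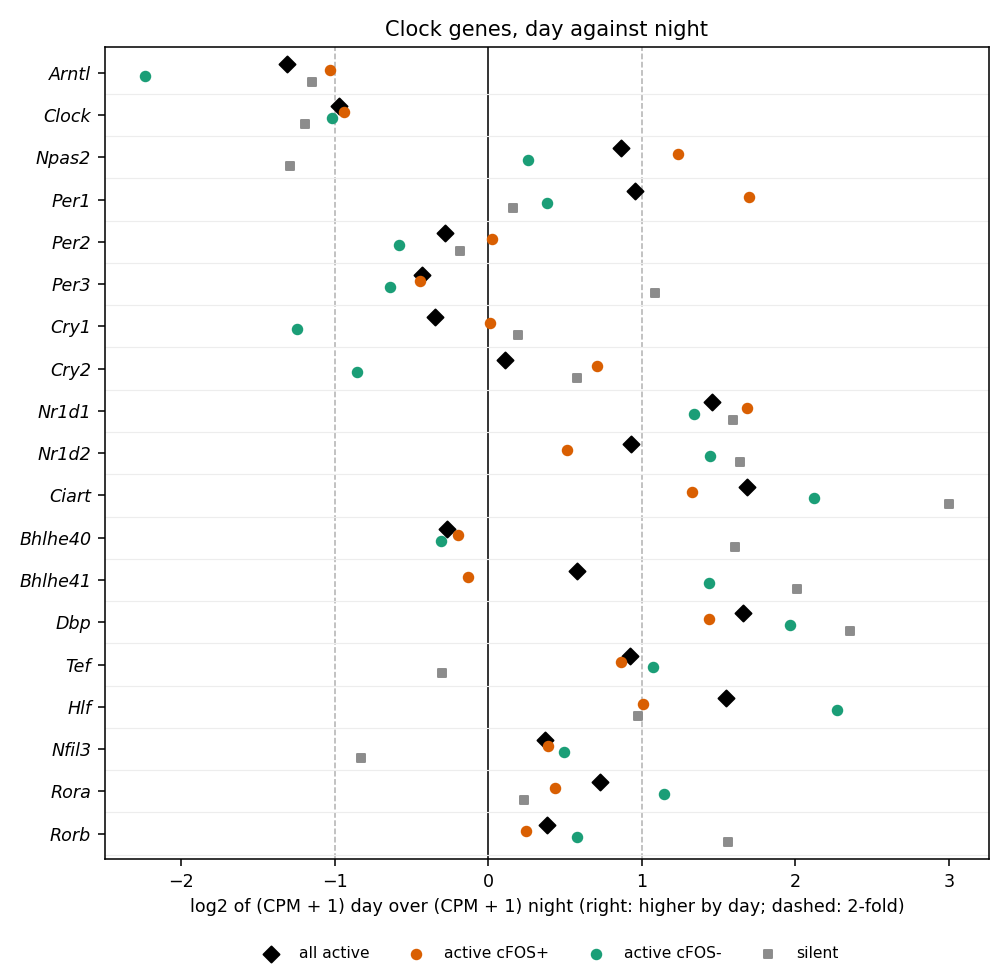
Log2 ratio of day over night (horizontal axis) for the 19 clock genes with at least 20 CPM in 1 group, in all active cells (diamonds), active cFOS+ and cFOS- cells (circles) and silent cells (squares), with dashed lines at 2-fold. Nr1d1, Ciart and Dbp lie to the right and Arntl and Clock to the left for all 4 marks, while Per2, Cry1, Cry2 and Bhlhe41 have circles on each side of 0.

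Within single cells the same genes can be set side by side. They were chosen because they passed 2-fold, so the counts below restate their single differences cell by cell. CPM is not corrected for gene length, so the counts below compare day with night, not the levels of the genes. Nr1d1 was above Arntl in 62 of the 78 cells recorded by day (79.5%, 68.8 to 87.8%) and in 50 of the 87 recorded at night (57.5%, 46.4 to 68.01%). Arntl was above Nr1d1 in 8 day cells (10.3%, 4.53 to 19.2%) and 33 night cells (37.9%, 27.7 to 49.0%). Dbp was above Arntl in 43 day cells (55.1%) and 22 night cells (25.3%). Reads of all 4 of Nr1d1, Dbp, Ciart and Hlf were found in 19 day cells (24.4%) and 6 night cells (6.90%). At most 1 of these 4 was read in 13 day cells (16.7%) and 37 night cells (42.5%). The groups overlapped in each of these measures.

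Transcription factors listed as activity-induced leaned to the day in cells labelled cFOS+. Of 26 measured members, 17 were higher by day (median 0.32). The count was 20 in cFOS+ cells (median 0.89) and 13 in cFOS- cells (median 0.02), and this difference between the labels was not tested. Of 11836 genes at 5 CPM or more, 6132 were higher by day in cFOS+ cells and 5392 in cFOS- cells. Cells numbered up to S319, both labels together, gave 13 of the 26 (median 0.04), and those from S324 on 19 (median 0.42). Fos (chr12:85473890-85477273), a subunit of the AP-1 factor, was at 2804 CPM (2799.8 to 2809) in the day cells and 2193 CPM (2189 to 2197) in the night cells (log2 0.35), with medians over cells of 1910.1 and 1323 CPM and highest cells at 12736 and 15716 CPM. It was read in nearly every thinned cell (95.9% and 95.1%). Junb, another AP-1 subunit, was 1.77-fold higher by day (0.82; 1.52 in cFOS+ and 0.48 in cFOS- cells), and 1.02 in silent cells. Ier2 (155 against 63.2 CPM, 1.28) and Klf4 (55.7 against 22.9 CPM, 1.25) passed 2-fold, but in silent cells they stood at -0.52 and -2.14. In all, 4 of 21 tested passed 2-fold by day (beside 6.82% of all genes) and none at night (beside 8.73%). Ier2 alone of the 4 did so within each cFOS label as well (beside 2.85% of all genes). Srf, the factor that drives many of these genes, was at 12.8 and 20.3 CPM (-0.63).

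Among genes listed as activity-induced that are not transcription factors, 16 of 27 were higher by day (median 0.31), 24 in cFOS+ and 13 in cFOS- cells. Among cells numbered up to S319 it was 12 (median -0.10), and among those from S324 on 20 (median 0.61). Rasl11b, a small GTPase of the Ras family, showed the widest ratio. It was at 305 CPM (304 to 306.8) in the day cells and 45.6 CPM (45.1 to 46.2) in the night cells, 6.57-fold (log2 2.72), with highest cells at 6559 and 1137 CPM and a median of 0 in each group. It was read in 35.1% (24.4 to 47.1%) of the day cells after thinning and in 19.8% (11.7 to 30.1%) of those at night. The ratio was 2.08 in cFOS+, 3.80 in cFOS- and 2.42 in silent cells. Gadd45g, a stress-response gene, was read in most cells and stood at 971 and 438.2 CPM (1.15; 0.93 in cFOS+, 1.51 in cFOS- and 0.51 in silent cells), with medians over cells of 508.99 and 328.6 CPM. Its relative Gadd45b was at 112 and 47.2 CPM (1.22), but at -0.01 among the cells numbered up to S319. Dusp4, a phosphatase of MAP kinases, was at 33.4 and 11.4 CPM (1.48), but 1 day cell held 32.7% of its day reads and it was read in fewer thinned cells by day (16.2%) than at night (19.8%). Past 2-fold at night were the kinase Sgk1 (27.1 against 57.1 CPM, -1.05) and Gadd45a (33.7 against 76.1 CPM, -1.15). Of 22 tested, 5 passed 2-fold by day (beside 6.82%) and 2 at night (beside 8.73%). Within each cFOS label as well, 2 (beside 2.85%) and 0 (beside 3.34%) did.

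Among regulators of G protein and cAMP signals, 24 of 39 members were higher by day (median 0.17). The share of all genes at 5 CPM or more was 47.8%. The count was 21 in cFOS- cells (median 0.10) and 23 in silent cells (median 0.09). Of 31 tested, 2 passed 2-fold by day (beside 6.82% of all genes) and 1 at night (beside 8.73%). Rgs16, which speeds the shut-off of inhibitory G proteins and is known as a rhythmic SCN gene, was at 119 CPM (118 to 120.3) in the day cells and 24.4 CPM (24.02 to 24.8) in the night cells. The log2 ratio was 2.24, and 2.50 in cFOS+, 2.10 in cFOS- and 1.91 in silent cells. At 20 CPM or more it was found in 30 day cells (38.5%, 27.7 to 50.2%) and 14 night cells (16.1%, 9.09 to 25.5%), with highest cells at 1351 and 438.8 CPM. Pde10a, which breaks down cyclic nucleotides, was at 225 and 59.4 CPM (1.90; 1.86 in cFOS+, 1.51 in cFOS- and 1.47 in silent cells), with highest cells at 4680 and 637 CPM. Among cells numbered up to S319 the ratio of Pde10a was -0.67. The adenylyl cyclase Adcy2 was lower by day at 93.3 against 171 CPM (-0.87; -0.93 in cFOS+, -0.69 in cFOS- and -0.96 in silent cells).

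Neuropeptides showed no common direction. Of 20 precursors, 11 were higher by day (median 0.56). The count was 8 among cells numbered up to S319 (median -1.12) and 15 among those from S324 on (median 0.96). Of 15 tested, 3 passed 2-fold by day (beside 6.82% of all genes) and 4 at night (beside 8.73%). Prok2 (chr6:99711299-99726392), an output peptide of the SCN, was at 79.8 CPM (79.0 to 80.6) in the day cells and 21.1 CPM (20.7 to 21.4) in the night cells. The log2 ratio was 1.87, and 1.46 in cFOS+, 2.40 in cFOS- and 3.77 in silent cells. Cells at 100 CPM or more numbered 17 by day (21.8%, 13.2 to 32.6%) and 6 at night (6.90%, 2.57 to 14.4%), with highest cells at 1412 and 412.96 CPM. Avp was at 2247 CPM in the day cells and 1030.2 CPM in the night cells (1.12), but 1 day cell held 41.2% of its day reads. Cells at 100 CPM or more were as frequent by day (23, 29.5%) as at night (24, 27.6%), and the ratio was 1.21 in cFOS+, 0.09 in cFOS- and 0.08 without the cells holding microglia markers. Vip, the peptide of the light-receiving SCN core, was at 2781 and 3914 CPM (-0.49), in 20 day and 19 night cells at 100 CPM or more, with highest cells at 36050 and 58224 CPM. Its ratio was -1.39 among cells numbered up to S319 and 1.03 among those from S324 on.

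Nms, neuromedin S, had a log2 ratio of 0.89 (0.99 in silent cells), and 33 day cells (42.3%) against 27 night cells (31.0%) reached 100 CPM. Several large peptide ratios rested on single cells. For Npy and Nts this was plainest: 1 day cell held 93.98% of the day reads of Npy (5.93), and 1 night cell held 78.04% of the night reads of Nts (-5.54). Trh was at 119 and 659 CPM (-2.46), with 2 day cells and 6 night cells at 100 CPM or more. With the top day cell and the top night cell left out, the ratio was -6.26. Cck, cholecystokinin, was at 80.2 and 16.3 CPM (2.23), with 57.99% of the day reads in 1 cell. The granin Scg2, which is packed into the same vesicles, was at 7031 and 5134 CPM (0.45). Of 17 receptors for peptides and transmitters, 6 were higher by day (median -0.47). Prokr2, the receptor of prokineticin 2, was at 308 and 147 CPM (1.06; 0.65 in cFOS+, 1.57 in cFOS- and -0.36 in silent cells). Vipr2, the receptor of VIP, was at 171.95 and 238.01 CPM (-0.47), and the nociceptin receptor Oprl1 at 131 and 216 CPM (-0.72).

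Of 13 genes of phosphate transport and inositol pyrophosphates, 4 were higher by day, beside 47.8% of all genes at 5 CPM or more. Their median of -0.05 was near that of all these genes (-0.03). The count was 5 in cFOS+ cells, 6 in cFOS- cells and 7 in silent cells (median 0.19). The phosphate importer Slc20a2 was at 50.7 CPM (50.1 to 51.3) in the day cells and 94.2 CPM (93.4 to 94.99) in the night cells (-0.88). It was lower by day in cFOS+ (-1.12), cFOS- (-0.63) and silent cells (-1.27), with reads in 27.03% (17.4 to 38.6%) and 43.2% (32.2 to 54.7%) of thinned cells. The exporter Xpr1 was at 67.0 and 121 CPM (-0.84; -1.39 in cFOS+, -0.16 in cFOS- and 0.38 in silent cells). The other importer, Slc20a1, was at 171 and 174 CPM (-0.03; 0.50 without the cells holding microglia markers). Ppip5k2, a kinase that makes inositol pyrophosphates, was the only member past 2-fold (37.4 against 80.6 CPM, -1.09), 1 of 13 tested beside 8.73% of all genes at night, and it did not pass within each cFOS label.

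Potassium channels differed gene by gene. Of 27 voltage-gated members 15 were higher by day (median 0.07), or 10 without the cells holding microglia markers (median -0.08). Of 13 tested, 3 passed 2-fold at night (beside 8.73% of all genes) and none by day (beside 6.82%). Kcnd3 alone also passed within each cFOS label (beside 3.34% of all genes at night). Kcnd3, the A-type channel Kv4.3 that spaces action potentials, was at 11.9 CPM (11.6 to 12.2) in the day cells and 50.5 CPM (49.9 to 51.0) in the night cells. The log2 ratio was -2.00, and -2.03 in cFOS+ and -1.97 in cFOS- cells, but -0.26 in silent cells. Highest cells were at 319.5 and 1071 CPM, and a read was found in 20.3% (11.8 to 31.2%) of the day cells after thinning and in 30.9% (21.1 to 42.1%) of those at night. The related Kcnd2 was at 12 and 43 CPM (-1.76; 0.09 in cFOS- cells), and Kcnh1 at 11.2 and 32.1 CPM (-1.44). Kcnc1, which encodes the fast delayed rectifier Kv3.1, was at 37.5 and 60.5 CPM (-0.68). Of 10 inward rectifier and two-pore channels, 7 were higher by day (median 0.30; -0.50 in cFOS- cells). Against that count, the G protein-gated subunits Kcnj3 (5.05 against 27.9 CPM, -2.25) and Kcnj9 (19.8 against 46.0 CPM, -1.18) were higher at night in each cFOS label. In silent cells Kcnj3 stood at 2.27, the other way. The BK channel Kcnma1, known for shaping the night-time firing of SCN neurons, was at 72 and 62 CPM (0.21; -0.52 in cFOS+ and 1.12 in cFOS- cells).

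Calcium and HCN channels leaned to the night, with 7 of 23 members higher by day (median -0.31). Among all genes at 5 CPM or more the share was 47.8%. The count was 10 without the cells holding microglia markers (median -0.22) and 11 among cells numbered from S324 on (median -0.07). In silent cells it was 13 (median 0.07). Of 16 tested, 2 passed 2-fold at night (beside 8.73% of all genes) and none by day (beside 6.82%). The L-type channel Cacna1c was at 15.03 and 51.6 CPM (-1.72; -1.22 in cFOS+, -2.67 in cFOS- and 0.90 in silent cells), and the N-type channel Cacna1b at 33.3 and 77.2 CPM (-1.19; 0.36 in silent cells). The ryanodine receptor Ryr2, which releases stored calcium, was at 31.0 and 15.4 CPM (0.96; 1.01 in silent cells). Sodium channels and NALCN were higher by day for 9 of 15 (median 0.11). Scn1a was at 51.1 and 27.1 CPM (0.89) and Scn9a at 104 and 171.8 CPM (-0.72), and neither passed 2-fold. Subunits of the sodium-potassium pump were higher by day for 2 of 6, with a median of -0.06.

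Among genes of the fast transmitters, those of glutamate receptors were more often higher at night, while GABA genes stood near the median of all genes. Of 23 glutamate receptor genes 7 were higher by day (median -0.27). The count was 13 among cells numbered from S324 on (median 0.09) and 12 in silent cells (median 0.01). The NMDA receptor subunit Grin2b was at 41.1 CPM in the day cells and 92.7 CPM in the night cells (-1.15; -1.07 in cFOS+ and -1.14 in cFOS- cells), with medians over cells of 25.1 and 33.9 CPM. The metabotropic receptor Grm7 was at 11.7 and 49.1 CPM (-1.98), and the subunit Grin3a at 31.9 and 8.69 CPM (1.76). Grin2c (-1.06) stood at 1.91 among cells numbered up to S319. In silent cells Grin2b was at 0.73 and Grin3a at -1.58, each the other way. Of 22 genes of GABA synthesis, transport and GABA-A receptors 9 were higher by day (median -0.04), beside 47.8% of all genes at 5 CPM or more (median -0.03). The subunit Gabrg3 was at 40.9 and 131 CPM (-1.66; -3.17 in cFOS+ and -0.61 in cFOS- cells), with a read in 29.7% and 56.8% of thinned cells, and Gabrg1 at 157.1 and 71.8 CPM (1.12). Slc12a2, the chloride importer NKCC1 that sets whether GABA excites, was at 13.998 and 32.7 CPM (-1.17). The plot of signalling genes sets these ratios beside those of silent cells.

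**Figure D4:**
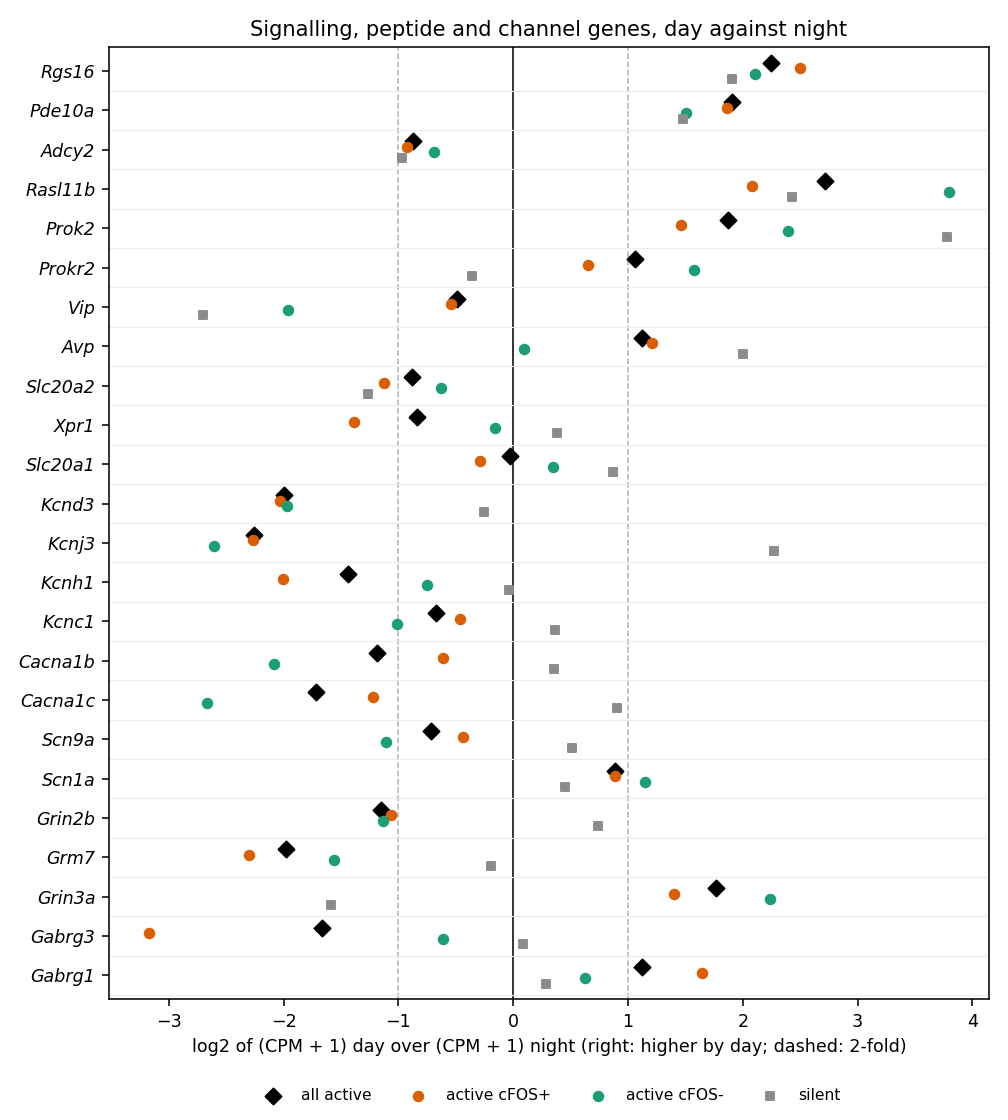
Log2 ratio of day over night (horizontal axis) for 24 signalling, peptide and channel genes in all active cells (diamonds), active cFOS+ and cFOS- cells (circles) and silent cells (squares), with dashed lines at 2-fold. For Rgs16, Pde10a, Rasl11b and Prok2 the 4 marks lie to the right, whereas for Kcnj3, Cacna1c and Grin2b the silent cells lie on the other side of 0 from the active ones.

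Among housekeeping lists, ribosomal protein genes were mostly higher by day, and other lists were split. Of 28 cytosolic ribosomal protein genes, 25 were higher by day (median 0.35; 0.18 in cFOS+, 0.29 in cFOS- and 0.13 in silent cells), and none passed 2-fold. Rps9 was at 326 and 193 CPM (0.75) and Rpl13 at 182 and 112 CPM (0.70). Nuclear genes of oxidative phosphorylation were higher by day for 26 of 36 (median 0.12), but for 17 in cFOS+ cells (median -0.01) and for 20 without the cells holding microglia markers (median 0.02), and the median was -0.26 in silent cells. Of the 10 genes on the mitochondrial genome, 8 leaned to the day (median 0.36), but 1 of 10 without the cells holding microglia markers (median -0.25). Glycolysis genes were higher by day for 8 of 20 (median -0.02), cholesterol and fatty acid synthesis genes for 10 of 23 (-0.01), and heat shock genes for 10 of 23 (-0.07). Synaptic vesicle genes were split 11 and 11, and dense-core vesicle genes 10 and 9. Of 15 SCN developmental factors, 10 were higher by day (median 0.38), or 8 without those cells (median 0.06), with Dlx2 at 48.0 and 15.3 CPM (1.59; -0.84 in silent cells) and Six6 at 31.7 and 57.0 CPM (-0.83).

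Genes of glia were higher by day as well. All 12 measured microglia markers were higher by day (median 1.96), among them Tmem119 (22.9 against 0.782 CPM, 3.74), as were 10 of 12 astrocyte markers (median 1.16) and 6 of 6 oligodendrocyte markers (median 1.46). Without the cells holding microglia markers, 8 of 12 microglia markers were higher by day (median 0.33), with Trem2 at -0.05 and P2ry12 at 0.00. The fall of the microglia markers was built in, since the cells left out were chosen by the sum of these markers. In the same cells 8 of 12 astrocyte markers (median 0.76) and 5 of 6 oligodendrocyte markers (median 0.76) were higher by day. The oligodendrocyte gene Mobp stood at -0.49. In silent cells 11 of 12 microglia markers (median 1.05), 8 of 12 astrocyte markers (0.73) and 2 of 6 oligodendrocyte markers (-0.46) were higher by day. The part of glial RNA in the other results was not tested. Without those cells 16 of 20 clock genes were higher by day (median 0.81), with Nr1d1 at 1.75, Dbp at 1.83, Ciart at 1.5 and Arntl at -1.17.

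**Figure D5:**
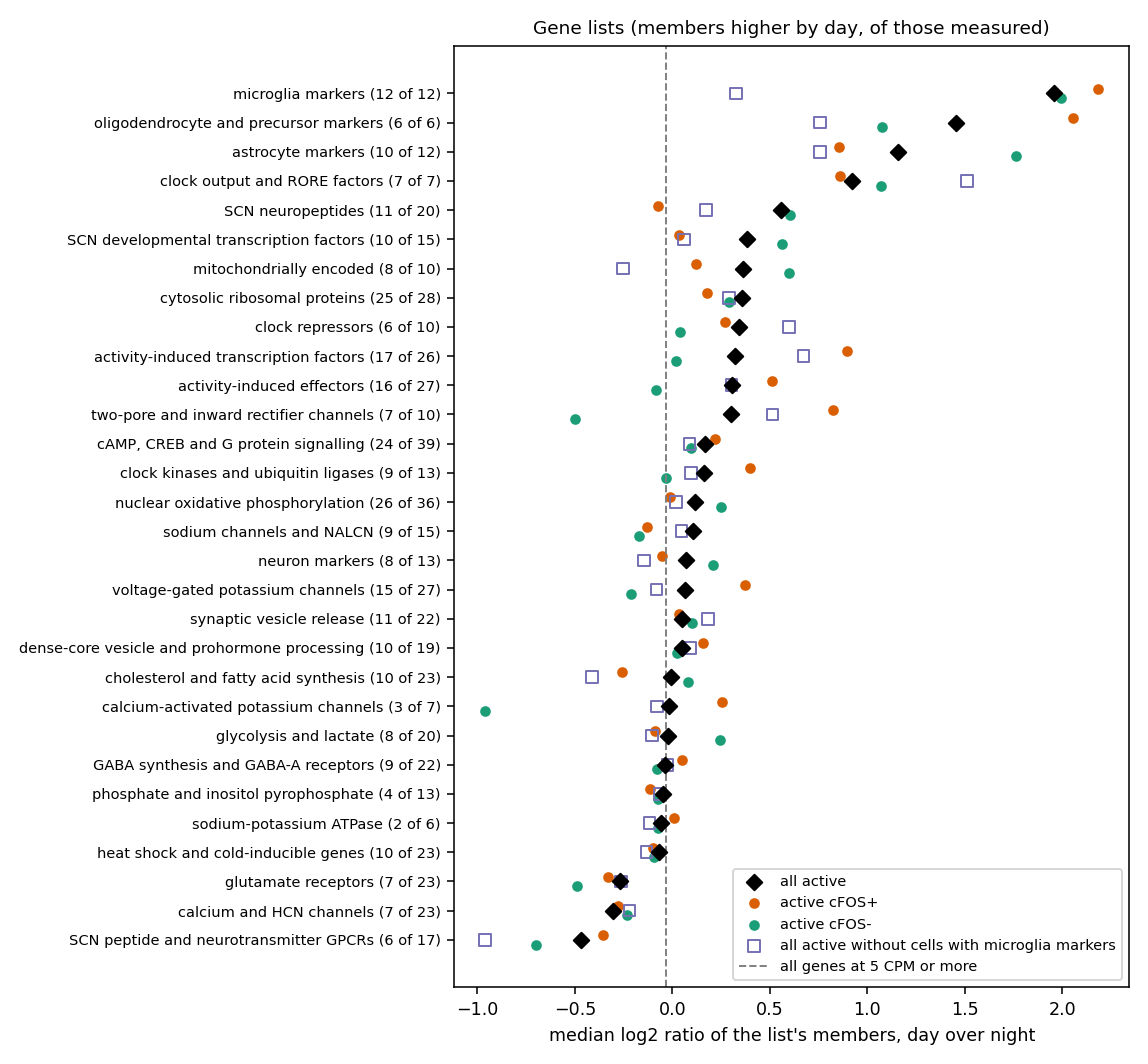
Median log2 ratio of day over night (horizontal axis) for each gene list with at least 5 measured members, in all active cells (diamonds), cFOS+ and cFOS- cells (circles) and cells without microglia markers (open squares), with the median of all genes as a dashed line. Glial lists lie farthest to the right. Leaving out cells with microglia markers moves the microglia median from 1.96 to 0.33, a fall built in because those markers chose the cells. The output factors of the clock stay to the right in the cells left.

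Beyond the lists, 2399 of the 8610 genes tested kept 1 direction in all cells, within each cFOS label, in the mean over cells, without the top cell, in thinned shares, in pairs of cells and in both ranges of cell numbers. The 12 genes with the largest smallest ratio in each direction, over all cells, each cFOS label, the mean over cells and the sum without the top cells, are named here in order of their ratio in all cells. By day the first was Ptgds, prostaglandin D synthase (386.7 against 18.4 CPM, 4.32), for which 1 day cell held 73.8% of the day reads. Next came the membrane skeleton protein Ank1 (37.0 against 4.76 CPM, 2.72), Rasl11b, Gtf2ird2 (2.58), Ccdc40 (2.37), Gltscr1l (2.25), Rgs16, Bnip1 (2.19), the glycosyltransferase Mgat5 (2.18), Dhrs1 (2.11), the adhesion receptor Adgrl2 (2.11) and Vps37c (1.97). Dhrs1 was read in 48.6% of thinned day cells and 18.5% of night cells, and Adgrl2 in 28.4% and 11.1%. In silent cells Ptgds (1.61), Adgrl2 (1.63), Rasl11b and Rgs16 were also higher by day, whereas Ccdc40 (-1.62) and Vps37c (-1.22) were not.

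Of the 12 at night, in the same order, the first was the deacylase Sirt6 (1.39 against 24.99 CPM, -3.45), with a read in 16.2% of thinned day cells and 34.6% of night cells and highest cells at 82.9 and 360.1 CPM. It was followed by the matrix metalloproteinase Mmp16 (8.57 against 50.5 CPM, -2.43), Klhl32 (-2.35), Pnma3 (-2.29), Kcnj3, the ubiquitin ligase Lrsam1 (-2.23), the mitochondrial carrier Slc25a44 (-2.11), Pdhx, a subunit of the pyruvate dehydrogenase complex (-2.05), Kcnd3, Zfyve1 (-1.89), the nucleotide kinase Dtymk (-1.82) and Tmem150a (-1.79). Pnma3 was read in 14.9% and 37.0% of thinned cells. Klhl32 (-1.05) and Pnma3 (-0.82) had the same sign in silent cells, while Sirt6 (0.52) and Pdhx (0.69) had the other. All of these night genes had medians of 0 over the cells of each group, so each ratio came from the minority of cells in which the gene was read.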

How the data were processed

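Single neurons were patch-clamped in SCN slices, and Nextera XT libraries were prepared from single cells, per the labels' protocols. The authors deposited raw read counts per gene for 22800 symbols. Their deposited normalized signal equals the counts divided by 1 factor per cell, checked here, and served as an alternative. STAR, DESeq2 and build GRCm38.p4 are named in the submitters' processing notes. Overlapping genes and paralogs may share reads, since versions, annotation and strand setting were not given in the sources used here. No molecular identifiers are mentioned.

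Counts were summed per group and scaled to CPM. Log2 ratios used a pseudocount of 1 CPM. A gene was tested with at least 20 CPM in the higher group and a read in 10% of its cells, and list members were measured from 5 CPM. Shares of cells used cells thinned to 4000000 reads, which left out 4 day and 6 night cells. Genes ranked for the 12 per direction needed reads in 25% of cells. They also needed 1 direction in all cells, each cFOS label, the mean over cells and the sum without each group's top cell. The same direction was needed in thinned shares, cell pairs, and cells numbered up to S319 and from S324. The 12 with the largest smallest ratio were taken per direction, with 2 to 4 genes per list, all clock genes, Fos, Vip, Avp, Prok2, Slc20a1, Slc20a2 and Xpr1. Other genes of the lists were named after their values were seen, and a few members are not reported here. Members and lists were chosen with earlier results of these data known. Doublets were not called, since a library held the contents of 1 pipette. Silent cells S70 and S71, nearly identical, were averaged. Alternatives were TMM (edgeR 4.0.16), the deposited signal, other filters and pseudocounts, and subsets of cells. Scripts used Python 3.11.15, pandas 2.3.3 and scipy 1.17.1 and were tested on simulated data. Gene positions are from GENCODE M21 (GRCm38).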

Additional observations from a re-analysis of the deposited data

Results flagged for a closer look

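Among the clock genes, Fos, Vip, Avp, Prok2, Slc20a1, Slc20a2 and Xpr1, opposite signs in the cFOS labels were found for 5, and this difference was not tested. Over all genes tested, 52.7% had the same sign in both labels, so opposite signs were common. The log2 ratio of day over night in cFOS+ and cFOS- cells was -0.13 and 1.43 for Bhlhe41, 0.010 and -1.24 for Cry1, 0.71 and -0.85 for Cry2, 0.023 and -0.58 for Per2, and -0.29 and 0.34 for Slc20a1.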

How the results depend on the processing

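Of the 145 genes named by the rules, 143 to 145 kept their direction with TMM factors, the deposited signal, thinned counts, a pseudocount of 10 CPM, the mean over cells, the mean of the cFOS labels or without the top cell of each group. Within each cFOS label 142 did, 133 without the cells holding microglia markers, and 130 among cells numbered up to S319 (19 day and 50 night cells). Among those from S324 on, 9 of the 145 changed direction. These counts are not an independent check. Genes named for their ratios were chosen by 1 direction in several of these settings, so their kept directions were largely built in. For part of them the choice also used both ranges of cell numbers. The TMM factors, 0.992 by day and 1.008 at night, could hardly change a sign. No scaling moved the median of all genes by more than 0.03. The number of genes past 2-fold depended on filters and on the number of cells. As a share of the 22800 symbols, it was 2.57% by day. It became 5.70% with a minimum of 5 CPM and no limit on cells, 0.961% with 50 CPM, 1.35% with a pseudocount of 10 CPM, 5.596% and 4.83% in the lower and higher cell numbers, 4.56% within cFOS+ and 5.21% within cFOS-. At night it was 3.30%, and the same settings gave 6.54%, 1.43%, 1.75%, 8.40%, 5.145%, 4.34% and 7.5%. Of the 587 genes higher by day, 348 were also past 2-fold in the lower cell numbers and 380 in the higher. Of the 68 named genes past 2-fold, 64 kept their direction among the lower numbers, 67 among the higher and 66 without cells holding microglia markers. For the cell numbers this was partly built in by the same choice of genes. Reversed among these 68 were Gadd45b (-0.010), Grin2c (1.91), P2ry12 (-0.99) and Pde10a (-0.67) among the lower numbers, Nts (1.71) among the higher, and Mobp (-0.49) and Trem2 (-0.053) without cells holding microglia markers. Trem2 belongs to the markers by which those cells were chosen. The cause of the reversals was not tested. No paired analysis was possible because the labels give no replicate numbers that the groups share.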
